A study of Mus musculus with 9 samples.

Results

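The genes described here are 32 named enzymes and transporters of glucose breakdown: 3 glucose transporters, the enzymes that turn glucose into pyruvate and lactate with their regulators, 2 lactate transporters, 3 pyruvate dehydrogenase kinases and 1 phosphoglucomutase. They were taken by symbol from the deposited gene annotation. The 32 symbols stand for 33 identifiers of 55421 genes, because the symbol Aldoa is held by the aldolase A gene and by a neighbouring identifier with few counts (ENSMUSG00000114515). Each of the 33 passed the filter on low counts, which left 15711 genes for testing.

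CD8+ T cells came from the spleen of Pmel Ly5.1 mice, bred from the Jax lines 005023 and 002014. Pmel Ly5.1 mice carry a transgenic T-cell receptor, and all 3 groups share this genotype. In the co-culture groups, T cells were kept for 36 h with DM5 cells, an immortalized bone marrow stromal line derived from BL6 mice whose mitochondria were labelled with the red fluorescent protein DsRed, and were then sorted. MitoPositive cells were DsRed-positive after co-culture, that is, they carried label from the stromal line. MitoNegative cells came from the same kind of co-culture and were DsRed-negative. The monoculture group was T cells kept without stromal cells, and the labels do not say that it was sorted. Each group had 3 libraries, lettered B, C and D. The age of the mice is not labelled. It is also not stated whether a letter is an animal, a culture or a day, and p-values then describe only the spread between these libraries, which may be technical. The titles also carry a time of 0 h that is not explained. Total RNA was sequenced after depletion of ribosomal RNA, with 53546152 to 74722832 counts per library.

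Glycolysis splits glucose into pyruvate in the cytosol and yields ATP without oxygen. Glucose enters through transporters of the Slc2a (GLUT) family, hexokinase traps it as glucose 6-phosphate, and phosphofructokinase commits it to breakdown. Pyruvate then either becomes lactate, through lactate dehydrogenase and export by monocarboxylate transporters, or enters the mitochondrion, where pyruvate dehydrogenase kinases restrain its oxidation. Activated CD8+ T cells are known for high glucose uptake and lactate production, which the transcription factors Myc and HIF-1 promote, whereas resting cells rely more on oxidation in mitochondria.

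Both co-cultured groups differed from monoculture in many of these 33 genes. In MitoPositive cells 19 of the 33 genes were higher than in monoculture and 3 were lower, which is 57.58% and 9.091% of them, beside 22.3% and 19.9% of all genes tested. In MitoNegative cells 19 were higher and 2 lower, or 57.58% and 6.061%, beside 20.6% and 18.3% of all genes tested. The median log2 fold change of the 33 was 0.64 in MitoPositive and 0.50 in MitoNegative cells, against 0.0034 and 0.0093 over all genes tested. In a fit with the replicate letter as a block, 21 were higher and 5 lower in MitoPositive cells, beside 24.8% and 23% of all genes tested, and 21 and 2 in MitoNegative cells, beside 23.5% and 21.5%. Both comparisons use the same monoculture libraries, so they are not independent of each other. The 33 genes were also chosen with earlier results of these data known, so an excess over all genes tested is no test of the pathway. Over 2-fold increases that passed the test were found for 7 genes in MitoPositive cells and 10 in MitoNegative cells, or 21.21% and 30.3%, beside 8.97% and 8.2% of all genes tested. Between MitoPositive and MitoNegative cells none of the 33 passed the test, where 26 of all genes tested (0.165%) did. Of the 33, 4 (Slc2a1, Slc2a3, Hk2 and Pgam1) had an unadjusted p under 0.05, as did 10.5% of all genes tested. DESeq2 called 2 of them (Hk2 and Slc2a3) and 2.66% of all genes tested, and limma voom called 0 and 0.21%. The letters paired these 2 groups, and with the letter as a block 1 of the 33 passed with all 9 libraries, beside 2.34% of all genes tested, and 14 with only these 2 groups, or 42.42%, beside 18.2%. Together the 33 took 0.545% ± 0.0294 (SD, n = 3) of all counts in monoculture, 0.987% ± 0.0407 in MitoNegative and 1.01% ± 0.00849 in MitoPositive cells. In bulk RNA, fewer cells of a type and less RNA per cell cannot be told apart.

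**Figure D1:**
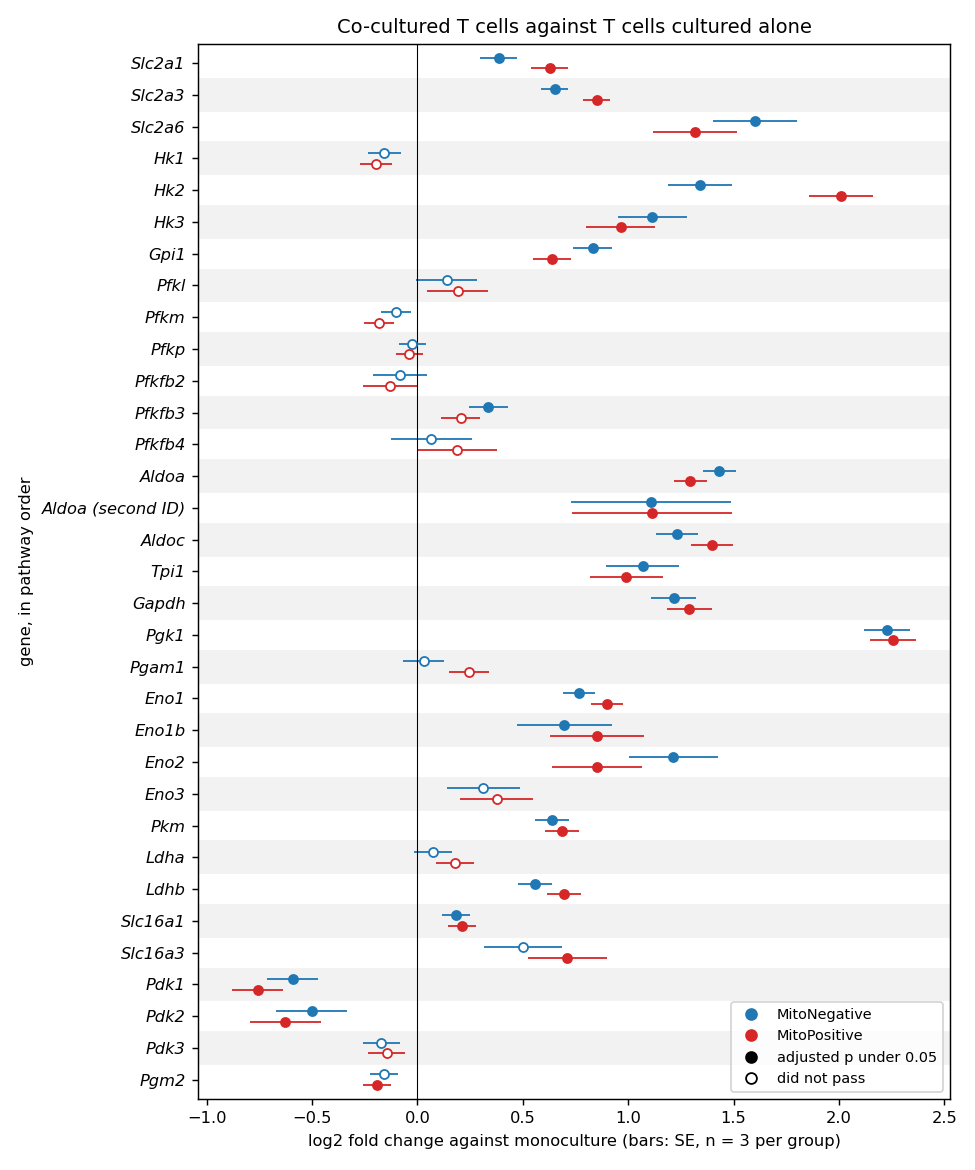
Log2 fold change of each gene against monoculture (horizontal axis; bars are SE, n = 3 libraries per group), with genes in pathway order from top to bottom. Filled points passed an adjusted p of 0.05. Pgk1 lies farthest right in both groups, at 2.26 in MitoPositive and 2.23 in MitoNegative cells, and Pdk1 and Pdk2 lie to the left of 0 in both.

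The promoters of 6 genes are shown because these genes mark the range of responses: Pgk1, Hk2 and Gapdh were higher after co-culture, Ldha did not pass the test in any comparison, and Pdk1 and Pdk2 were lower. All 6 hold a match to the letters marked below, and no window without a match is shown. Each sequence is the 250 bases before the start given by RefSeq (build GRCm38.p6), written 5′ to 3′ on the strand of the gene. Capitals mark ACGTG and GCGTG on either strand, the core letters of the hypoxia response element that HIF-1 binds. The E-box CACGTG, bound by Myc with Max, contains ACGTG on both strands and so counts here as 2 overlapping matches. The windows are chrX:106186850-106187099 (plus strand) for Pgk1, chr6:82774455-82774704 (minus) for Hk2, chr6:125165774-125166023 (minus) for Gapdh, chr7:46845554-46845803 (plus) for Ldha, chr2:71872974-71873223 (plus) for Pdk1 and chr11:95041372-95041621 (minus) for Pdk2.
Pgk1: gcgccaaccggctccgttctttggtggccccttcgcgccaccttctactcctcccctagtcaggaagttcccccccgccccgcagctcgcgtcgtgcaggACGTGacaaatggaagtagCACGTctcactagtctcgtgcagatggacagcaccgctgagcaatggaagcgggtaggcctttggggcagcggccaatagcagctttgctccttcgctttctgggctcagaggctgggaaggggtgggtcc
Hk2: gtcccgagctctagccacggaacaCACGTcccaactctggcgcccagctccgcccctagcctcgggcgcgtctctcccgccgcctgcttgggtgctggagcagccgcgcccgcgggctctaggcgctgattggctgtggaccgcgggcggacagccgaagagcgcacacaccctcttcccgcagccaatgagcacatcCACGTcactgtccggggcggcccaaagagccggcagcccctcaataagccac
Gapdh: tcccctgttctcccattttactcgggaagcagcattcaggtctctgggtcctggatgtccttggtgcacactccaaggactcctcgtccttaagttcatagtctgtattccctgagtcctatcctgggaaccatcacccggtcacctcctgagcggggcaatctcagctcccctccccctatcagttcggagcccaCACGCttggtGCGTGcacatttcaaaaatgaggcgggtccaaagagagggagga
Ldha: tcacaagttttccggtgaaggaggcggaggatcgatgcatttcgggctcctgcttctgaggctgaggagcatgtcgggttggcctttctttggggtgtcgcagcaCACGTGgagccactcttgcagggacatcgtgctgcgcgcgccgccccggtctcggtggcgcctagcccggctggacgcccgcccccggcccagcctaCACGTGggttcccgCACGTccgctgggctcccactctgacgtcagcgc
Pdk1: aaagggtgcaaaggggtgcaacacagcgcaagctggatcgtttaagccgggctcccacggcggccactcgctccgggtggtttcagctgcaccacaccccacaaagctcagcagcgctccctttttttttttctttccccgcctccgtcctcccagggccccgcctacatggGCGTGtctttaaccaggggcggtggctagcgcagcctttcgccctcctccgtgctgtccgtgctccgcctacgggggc
Pdk2: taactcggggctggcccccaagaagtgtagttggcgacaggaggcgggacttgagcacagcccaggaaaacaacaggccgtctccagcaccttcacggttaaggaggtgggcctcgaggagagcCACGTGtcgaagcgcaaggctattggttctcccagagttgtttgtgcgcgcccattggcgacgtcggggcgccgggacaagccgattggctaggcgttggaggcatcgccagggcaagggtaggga

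Pgk1 held 2 ACGTG matches, with first bases 150 and 131 bases before the start, and Hk2 held 2, at 226 and 52 bases. Gapdh held 2 GCGTG matches, at 54 and 44 bases, and Pdk1 held 1, at 78 bases. Ldha, which did not pass the test, had the most matches of these 6 windows, 5, of which 4 lie in 2 E-boxes. Pdk2 held 1 E-box, at 126 bases. A promoter window was found for 30 of the 32 symbols, not for Slc2a3 and Eno1b. ACGTG was in 13 of the 30 windows (43.3%), beside 21.4% of the 13240 windows of genes tested. GCGTG was in 15 (50%), beside 43.7%, and CACGTG was in 4 (13.3%), beside 8.03%. At least 1 of ACGTG and GCGTG was in 24 of the 30 windows (80%), beside 54.8% of the windows of genes tested and 38.6% of all 32851 windows. The median GC content was 59.8% in the 30 windows and 59.6% in those of genes tested. Of the 24 genes with a match, 11 were higher and 3 lower in MitoPositive cells than in monoculture, and of the 6 without one, 5 were higher. The RefSeq starts used for Gapdh and Ldha lie inside the spans deposited for these genes. A match describes only letters in this window, and no binding was measured.

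The glucose transporters were higher in both co-cultured groups. Slc2a1 encodes GLUT1, the main glucose importer induced when T cells are activated (chromosome 4, 119108711 to 119137983, plus strand). Its level, in CPM (counts scaled to a common library size by trimmed mean of M-values), was 35.8, 33.8 and 38.2 in monoculture libraries B, C and D, 52.2, 43.1 and 45.6 in MitoNegative and 60.9, 55.4 and 50.4 in MitoPositive libraries. Every co-cultured library lay above the monoculture libraries, while the highest MitoNegative library (B) lay above the lowest MitoPositive library (D). The log2 fold change against monoculture was 0.63 ± 0.0874 (SE) in MitoPositive cells (adjusted p = 0.000148) and 0.39 ± 0.0873 in MitoNegative cells (adjusted p = 0.00447). Slc2a3 encodes GLUT3, a transporter with high affinity for glucose (chromosome 6, 122727809 to 122801640, minus strand). It stood at 262, 251 and 281 CPM in monoculture, 415, 401 and 432 in MitoNegative and 494, 471 and 468 in MitoPositive libraries, so the 3 groups did not overlap. Against monoculture it was 1.8-fold higher in MitoPositive cells (log2 0.85 ± 0.0639, adjusted p = 1.54e-06) and 1.57-fold higher in MitoNegative cells (log2 0.65 ± 0.0637, adjusted p = 1.60e-05). Slc2a6 encodes GLUT6, a transporter found mainly on lysosomes (chromosome 2, 27021363 to 27027998, minus strand). It had the largest fold of the 3 transporters against monoculture, from 2.72, 5.04 and 3.53 CPM to 10.3, 12.4 and 11.6 in MitoNegative and 7.91, 10.6 and 9.62 in MitoPositive libraries. These were 3.03-fold and 2.49-fold increases (adjusted p = 0.000102 and 0.000294). Per kilobase of exon, Slc2a3 remained the most abundant of the 3, with 36.5 CPM per kilobase in monoculture, 57.4 in MitoNegative and 65.9 in MitoPositive cells, against 10.2, 13.4 and 15.8 for Slc2a1 and 1.17, 3.55 and 2.92 for Slc2a6.

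**Figure D2:**
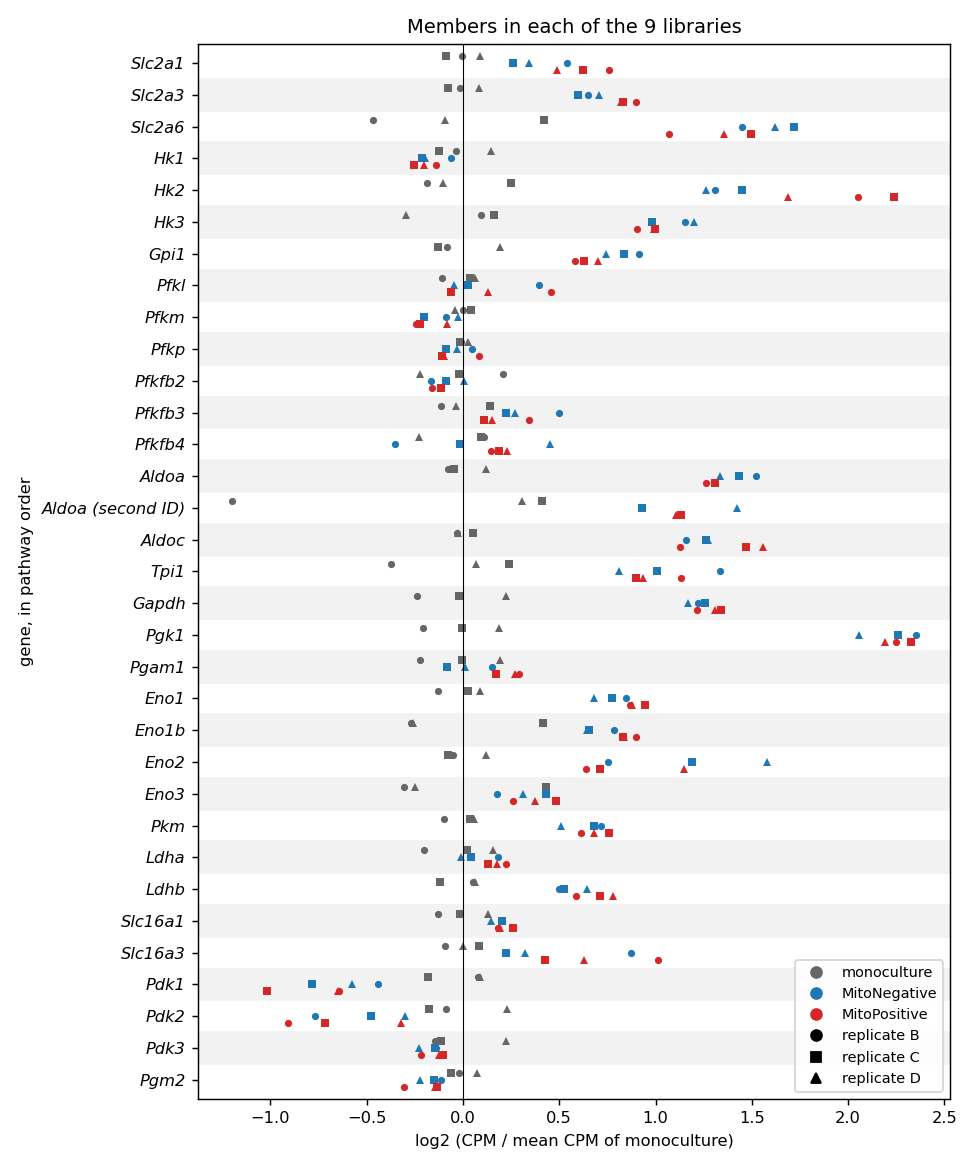
Each point is 1 library (horizontal axis: log2 of its CPM over the mean CPM of monoculture), with colour for the group and shape for the letter. Genes run in pathway order from top to bottom. Co-cultured libraries lie to the right of all monoculture libraries for Slc2a1, Slc2a3, Slc2a6, Hk2, Aldoa, Gapdh, Pgk1, Eno1 and Pkm, whereas Hk1, the Pfk genes and Ldha lie near 0.

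Among the hexokinases, which trap glucose in the cell, Hk2 and Hk3 were higher after co-culture and Hk1 did not pass the test. Hk2 encodes hexokinase 2, an inducible enzyme that can bind the mitochondrial outer membrane (chromosome 6, 82725025 to 82774454, minus strand). It was at 15.6, 21.1 and 16.6 CPM in monoculture, 44, 48.4 and 42.6 in MitoNegative and 73.8, 83.8 and 57.2 in MitoPositive libraries. The 3 groups did not overlap, and MitoPositive library D was the lowest of its group. Hk2 was 4.03-fold higher in MitoPositive cells than in monoculture (log2 2.01 ± 0.152, adjusted p = 7.95e-06) and 2.53-fold higher in MitoNegative cells (log2 1.34 ± 0.15, adjusted p = 0.000123). Hk3, a form typical of myeloid cells (chromosome 13, 55005985 to 55021385, minus strand), was low throughout, at 1.54, 1.61 and 1.18 CPM in monoculture, 3.21, 2.85 and 3.32 in MitoNegative and 2.7, 2.88 and 2.87 in MitoPositive libraries. Its fold was 1.95 in MitoPositive cells (log2 0.96 ± 0.164, adjusted p = 0.000613) and 2.17 in MitoNegative cells (log2 1.11 ± 0.164, adjusted p = 0.000278). The summed CPM of 8 myeloid markers, of which 2 or 3 were at 0 in each library, ranged from 3.98 to 5.15 in monoculture, 5.00 to 8.42 in MitoNegative and 6.09 to 7.39 in MitoPositive libraries. Most of this sum was Cd68, a lysosomal protein, at 2.72, 5.84 and 6.03 CPM in the same order, while the macrophage marker Adgre1 was at 0.844, 0.139 and 0.0964 and Lyz2 at 0.401, 0.101 and 0.0619. Cd14 was at 0.0276, 0.117 and 0.217 CPM, higher in both co-cultured groups. Itgam was at 0.369, 0.317 and 0.408 CPM, Csf1r at 0.138, 0.111 and 0.0922, and S100a8 and S100a9 at 0. Of 6 myeloid markers tested, 2 were higher and 2 lower in MitoPositive cells than in monoculture, and 1 was higher and 1 lower in MitoNegative cells. Of all genes tested, 22.3% were higher and 19.9% lower in MitoPositive cells, and 20.6% and 18.3% in MitoNegative cells. The part of myeloid cells in the level of Hk3 was not tested. Hk1, the form expressed in most tissues, was at 279.7 ± 27 CPM (SD, n = 3) in monoculture, 251 ± 14.7 in MitoNegative and 244 ± 9.8 in MitoPositive cells. Its log2 fold change in MitoPositive cells was -0.20 ± 0.0761, with an adjusted p of 0.0571. The adjusted p was 0.0359 with DESeq2, 0.0355 in a fit with the replicate letter as a block and 0.0246 without monoculture library C. Computed per exon length, the share of Hk2 in the hexokinase transcripts was 8.30% ± 1.81 in monoculture, 20% ± 1.67 in MitoNegative and 28.9% ± 4.26 in MitoPositive cells, and Hk1 remained the majority form at 90.6%, 77.8% and 69.3%.

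**Figure D3:**
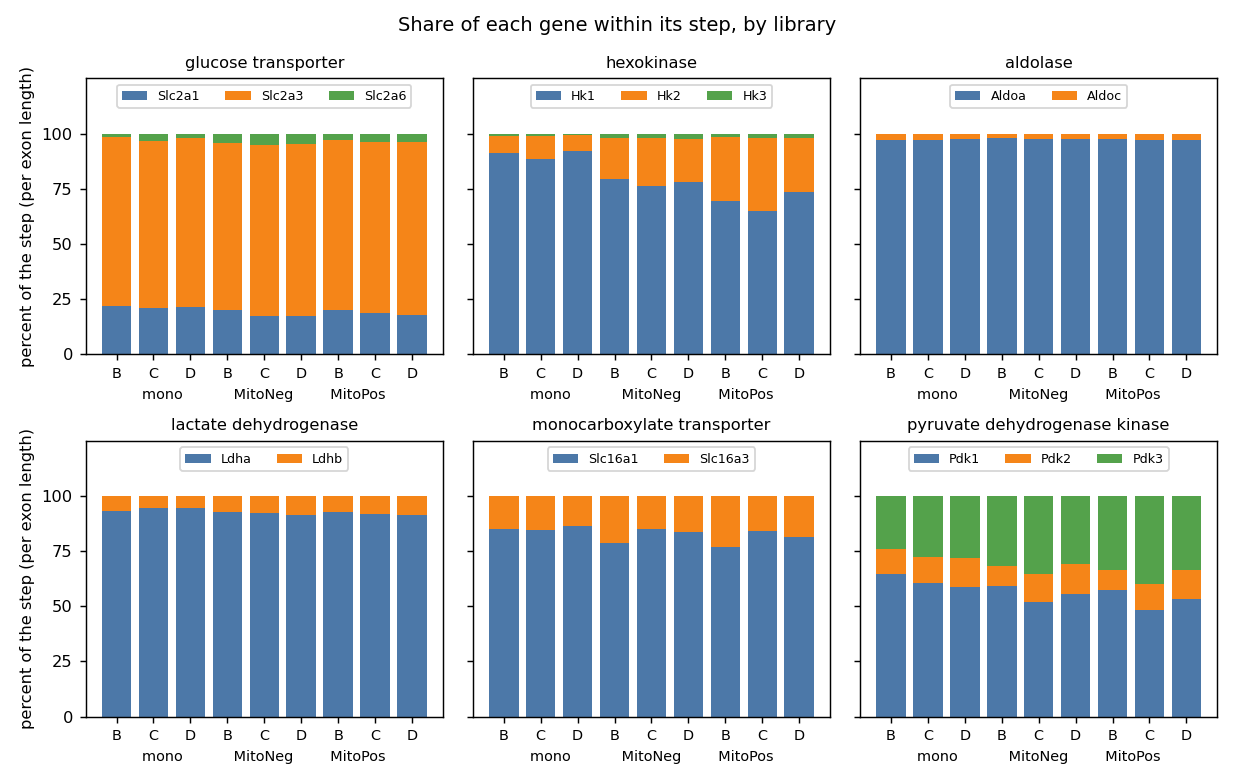
Share of each gene within its enzyme or transporter step, in percent of the CPM per exon length of the genes shown (vertical axis), for each of the 9 libraries. The Hk2 share ran from 7.05% to 10.4% in monoculture, 18.6% to 21.8% in MitoNegative and 24.6% to 33.1% in MitoPositive libraries, while the Aldoa share of aldolase stayed between 96.9% and 97.9%.

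The steps after hexokinase divided. Gpi1 encodes glucose-6-phosphate isomerase, which makes fructose 6-phosphate (chromosome 7, 34201330 to 34230336, minus strand), and it was at 579, 559 and 700.4 CPM in monoculture, 1153, 1092 and 1026 in MitoNegative and 916, 948 and 997 in MitoPositive libraries. The groups did not overlap, and MitoNegative libraries were the highest. Gpi1 was 1.56-fold higher in MitoPositive cells (log2 0.64 ± 0.0917, adjusted p = 0.000186) and 1.78-fold higher in MitoNegative cells (log2 0.83 ± 0.0919, adjusted p = 3.86e-05) than in monoculture. None of the 3 phosphofructokinase genes, whose enzymes catalyse the committed step, passed the test in any of the 3 comparisons. Pfkp, the most abundant of them, was at 248 ± 4.03 CPM in monoculture, 244 ± 11.3 in MitoNegative and 241 ± 18.5 in MitoPositive cells, with log2 fold changes of -0.02 ± 0.0657 and -0.04 ± 0.0657 against monoculture. Pfkl had log2 fold changes of 0.14 ± 0.145 and 0.19 ± 0.145, and Pfkm of -0.10 ± 0.0715 and -0.18 ± 0.0717, and with the replicate block the adjusted p of Pfkm in MitoPositive cells was 0.0468, or 0.0371 without MitoPositive library D. The Pfkfb genes encode the enzymes that make and remove a fructose bisphosphate that is an activator of phosphofructokinase. Pfkfb3, whose product mainly makes the activator (chromosome 2, 11471433 to 11554077, minus strand), was at 38.5, 45.9 and 40.6 CPM in monoculture, 58.9, 48.6 and 50.4 in MitoNegative and 52.9, 45 and 46.3 in MitoPositive libraries. It was 1.26-fold higher in MitoNegative cells (log2 0.34 ± 0.0921, adjusted p = 0.0127), and in MitoPositive cells its log2 fold change was 0.21 ± 0.0922 (adjusted p = 0.0934), with library C of that group below monoculture library C. Without monoculture library B the MitoNegative difference no longer passed (adjusted p = 0.0537), and without monoculture library C the MitoPositive difference did (adjusted p = 0.0437). Pfkfb2 and Pfkfb4 stood between 2.87 and 6.56 CPM in the 9 libraries and did not pass the test in any comparison.

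Aldolase and triose-phosphate isomerase, which yield the 3-carbon sugars, were higher in both co-cultured groups. Aldoa encodes the main aldolase of these cells (chromosome 7, 126795234 to 126800751, minus strand) and was at 397, 406 and 456 CPM in monoculture, 1205, 1133 and 1058 in MitoNegative and 1008, 1038 and 1041 in MitoPositive libraries. It was 2.45-fold higher in MitoPositive (log2 1.29 ± 0.0781, adjusted p = 3.14e-07) and 2.7-fold higher in MitoNegative cells (log2 1.43 ± 0.0784, adjusted p = 3.48e-07), and the 3 groups did not overlap. Aldoc, the aldolase best known from brain (chromosome 11, 78322968 to 78327781, plus strand), was at 12.5, 13.2 and 12.5 CPM in monoculture, 28.4, 30.6 and 30.8 in MitoNegative and 27.8, 35.4 and 37.5 in MitoPositive libraries. Its increases were 2.63-fold in MitoPositive cells (log2 1.40 ± 0.10, adjusted p = 1.11e-06) and 2.35-fold in MitoNegative cells (log2 1.23 ± 0.0999, adjusted p = 4.42e-06). Aldoa kept 97.4%, 97.7% and 97.2% of the aldolase transcripts in monoculture, MitoNegative and MitoPositive cells. The second Aldoa identifier lay between 0.0819 and 0.504 CPM, and its calls (adjusted p = 0.0337 and 0.037) were lost when any 1 MitoPositive library or monoculture library B was left out for the first, and any 1 MitoNegative library, monoculture library B or MitoPositive library C or D for the second (adjusted p up to 0.122). Its call in MitoNegative cells was also lost with DESeq2 (adjusted p = 0.0528) and with only the 2 groups compared (0.0598). Tpi1 encodes triose-phosphate isomerase (chromosome 6, 124810586 to 124814296, minus strand). It was at 88.5, 135 and 120.1 CPM in monoculture, 289, 231 and 201 in MitoNegative and 251, 214 and 219 in MitoPositive libraries, and library B was the lowest in monoculture and the highest after co-culture. The fold was 1.99 in MitoPositive (log2 0.99 ± 0.173, adjusted p = 0.00177) and 2.1 in MitoNegative cells (log2 1.07 ± 0.174, adjusted p = 0.00142).

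Pgk1 had the largest fold of the 33 genes in both comparisons with monoculture. It encodes phosphoglycerate kinase 1, which makes the first ATP of the pathway (chromosome X, 106187100 to 106203699, plus strand). Its level was 222, 255 and 292 CPM in monoculture, 1308, 1227 and 1066 in MitoNegative and 1217, 1283 and 1168 in MitoPositive libraries. The lowest co-cultured library was far above the highest monoculture library, and the co-cultured groups overlapped. The increase was 4.77-fold in MitoPositive (log2 2.26 ± 0.11, adjusted p = 7.66e-08) and 4.69-fold in MitoNegative cells (log2 2.23 ± 0.11, adjusted p = 1.52e-07). Gapdh, the dehydrogenase just before it (chromosome 6, 125161715 to 125166467, minus strand), often serves as a reference gene for normalization. It was at 774, 899 and 1065 CPM in monoculture, 2125, 2180.1 and 2054 in MitoNegative and 2117, 2312 and 2264 in MitoPositive libraries. This was a 2.44-fold increase in MitoPositive (log2 1.29 ± 0.107, adjusted p = 3.15e-06) and a 2.32-fold increase in MitoNegative cells (log2 1.22 ± 0.107, adjusted p = 7.50e-06). Per exon length, the ratio of Gapdh to Pgk1 was 1.93 ± 0.0457 in monoculture, 0.964 ± 0.0820 in MitoNegative and 0.992 ± 0.0552 in MitoPositive cells. The length counts all annotated exons, 4133 bases for Gapdh and 2244 for Pgk1, not those of 1 transcript. The size of this ratio is therefore uncertain. In CPM, Gapdh was above Pgk1 in every library.

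The next enzyme, phosphoglycerate mutase, did not pass the test. Pgam1 was at 56.1 ± 8.03 CPM in monoculture, 57.2 ± 4.74 in MitoNegative and 66.5 ± 2.89 in MitoPositive cells, with log2 fold changes of 0.25 ± 0.0956 in MitoPositive (adjusted p = 0.0577, but under 0.05 in 9 of 18 alternative fits, among them 0.0457 with the replicate block and 0.00534 without monoculture library D) and 0.03 ± 0.0957 in MitoNegative cells (adjusted p = 0.837). The enolases, which make phosphoenolpyruvate, were mostly higher. Eno1, the form of most tissues (chromosome 4, 150236721 to 150248879, plus strand), was at 420.1, 468 and 488 CPM in monoculture, 824, 784 and 734 in MitoNegative and 835, 885 and 844 in MitoPositive libraries. It was 1.86-fold higher in MitoPositive (log2 0.90 ± 0.0761, adjusted p = 3.83e-06) and 1.7-fold higher in MitoNegative cells (log2 0.77 ± 0.076, adjusted p = 1.70e-05). The retrogene Eno1b was called higher in both groups (log2 0.85 ± 0.224 and 0.70 ± 0.225, adjusted p = 0.00927 and 0.0283) at 0.557 to 1.25 CPM. Of its 50-base words, 76.4% are also found in Eno1, so its counts are uncertain. Its MitoNegative call was lost in 8 of 18 alternative fits. Among these were no filter (adjusted p = 0.0503) and only the 2 groups compared (0.0567, or 0.0501 with the block). The call was also lost without any 1 MitoNegative library or without monoculture library B or D (0.0507 to 0.0953). Eno2, the neuronal enolase (chromosome 6, 124760053 to 124769673, minus strand), was at 2.33, 2.28 and 2.62 CPM in monoculture, 4.06, 5.5 and 7.19 in MitoNegative and 3.74, 3.94 and 5.34 in MitoPositive libraries. Its log2 fold changes were 0.85 ± 0.212 and 1.21 ± 0.212 (adjusted p = 0.00675 and 0.00089 in MitoPositive and MitoNegative cells). Eno3, the muscle enolase, had log2 fold changes of 0.38 ± 0.173 and 0.31 ± 0.173, which did not pass without the block (adjusted p = 0.106 and 0.183) and passed with it (0.0135 and 0.0338). Without monoculture library C, the highest of its group, the fold changes were 0.65 and 0.59 (adjusted p = 0.00115 and 0.0025). Pkm encodes the pyruvate kinase of T cells, which makes pyruvate and ATP (chromosome 9, 59656368 to 59679375, plus strand), and gene counts do not separate its M1 and M2 splice forms. It was at 670.3, 736 and 745 CPM in monoculture, 1181, 1152 and 1022 in MitoNegative and 1099, 1213 and 1149 in MitoPositive libraries, a 1.61-fold increase in MitoPositive (log2 0.69 ± 0.0805, adjusted p = 4.34e-05) and a 1.56-fold increase in MitoNegative cells (log2 0.64 ± 0.0804, adjusted p = 9.37e-05).

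**Figure D4:**
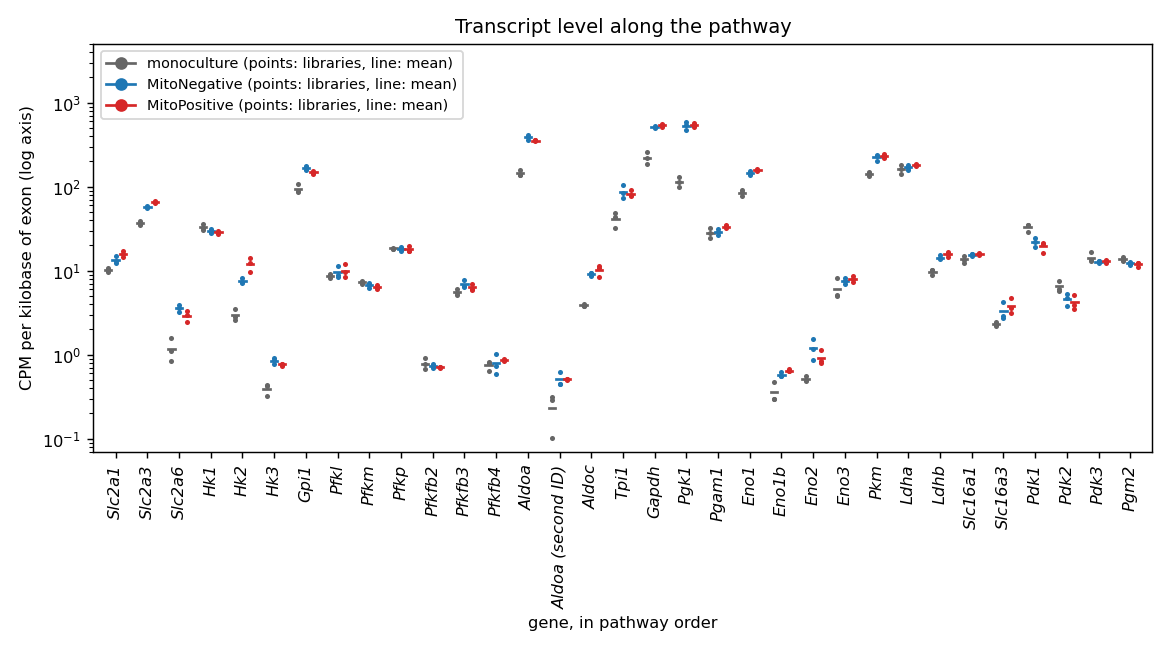
Level of each gene in CPM per kilobase of exon (vertical log axis), in pathway order from left to right; points are libraries and lines are means of 3. In monoculture Gapdh, Ldha, Aldoa and Pkm had the highest values, at 221, 161, 144 and 143, and in MitoPositive cells Pgk1 and Gapdh did, at 545 and 540. The length counts all annotated exons of a gene, so the order of genes is uncertain.

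Ldha did not pass the test against monoculture in either group. It encodes the A subunit of lactate dehydrogenase, which favours lactate formation (chromosome 7, 46841475 to 46855627, plus strand). It was at 464, 542 and 595 CPM in monoculture, 606, 549 and 529.7 in MitoNegative and 624, 584 and 603 in MitoPositive libraries. The 3 groups overlapped, and monoculture library B was the lowest of all. The log2 fold change was 0.18 ± 0.0905 in MitoPositive (adjusted p = 0.136) and 0.07 ± 0.0904 in MitoNegative cells (adjusted p = 0.563). Without monoculture library D, or with total counts as the scale, the MitoPositive increase passed (adjusted p = 0.019 and 0.0454). Per exon length, the ratio of Pgk1 to Ldha transcripts was 0.707 ± 0.0146 in monoculture, 3.15 ± 0.166 in MitoNegative and 2.99 ± 0.216 in MitoPositive cells. Ldhb, the B subunit, which favours the return of lactate to pyruvate (chromosome 6, 142490249 to 142507957, minus strand), was at 15.8, 14.1 and 15.9 CPM in monoculture, 21.6, 22 and 23.9 in MitoNegative and 23, 25 and 26.2 in MitoPositive libraries. It was 1.62-fold and 1.47-fold higher in MitoPositive and MitoNegative cells (log2 0.69 ± 0.0795 and 0.56 ± 0.0794, adjusted p = 3.54e-05 and 0.000219). Its share of lactate dehydrogenase transcripts stayed small, at 5.75% ± 0.841, 7.82% ± 0.838 and 7.96% ± 0.653 in monoculture, MitoNegative and MitoPositive cells.

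Both lactate transporters were called higher in MitoPositive cells, while in MitoNegative cells the call of each depended on the fit. Slc16a1 encodes MCT1, which carries lactate in either direction (chromosome 3, 104638668 to 104658462, plus strand), and was at 55.3, 59.9 and 66.3 CPM in monoculture, 69.6, 69.7 and 66.8 in MitoNegative and 68.5, 72.5 and 69.1 in MitoPositive libraries. The differences were small, with log2 fold changes of 0.21 ± 0.0664 and 0.18 ± 0.0664 (adjusted p = 0.0229 and 0.0453). The MitoPositive call was lost without MitoPositive library C or monoculture library B or C (adjusted p from 0.0622 to 0.0922). The MitoNegative call was lost in 11 of 18 alternative fits. Among them were DESeq2 size factors (adjusted p = 0.0516) and leaving out any 1 library except monoculture library D (0.0588 to 0.169). Slc16a3 encodes MCT4, an exporter of lactate from highly glycolytic cells (chromosome 11, 120948480 to 120960868, plus strand). It was at 11.6, 13.1 and 12.4 CPM in monoculture, 22.5, 14.4 and 15.4 in MitoNegative and 24.9, 16.6 and 19 in MitoPositive libraries, and library B was the highest of both co-cultured groups. It was 1.64-fold higher in MitoPositive cells (log2 0.71 ± 0.186, adjusted p = 0.0116). In MitoNegative cells the log2 fold change of 0.50 ± 0.186 did not pass (adjusted p = 0.0566). It passed in 9 of 18 alternative fits, among them DESeq2 (adjusted p = 0.0154), the replicate block (0.0200) and total counts as the scale (0.0496). It also passed without MitoNegative library C or MitoPositive library B or C (adjusted p from 0.0275 to 0.0447).

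Of the pyruvate dehydrogenase kinases, which switch off the entry of pyruvate into the citric acid cycle, Pdk1 and Pdk2 were lower after co-culture. Pdk1 (chromosome 2, 71873224 to 71903858, plus strand) was at 271, 226 and 273 CPM in monoculture, 189, 149 and 172 in MitoNegative and 165, 127 and 164 in MitoPositive libraries. All 6 co-cultured libraries lay below the monoculture libraries, and library C was the lowest of each group. Pdk1 was 1.69-fold lower in MitoPositive (log2 -0.76 ± 0.12, adjusted p = 0.000509) and 1.51-fold lower in MitoNegative cells (log2 -0.59 ± 0.119, adjusted p = 0.00275). Pdk2 (chromosome 11, 95026258 to 95041354, minus strand) was at 19.3, 18.2 and 24.1 CPM in monoculture, 12.1, 14.8 and 16.6 in MitoNegative and 10.9, 12.5 and 16.5 in MitoPositive libraries, and library D was the highest of each group. It was 1.54-fold lower in MitoPositive (log2 -0.63 ± 0.17, adjusted p = 0.013) and 1.42-fold lower in MitoNegative cells (log2 -0.50 ± 0.169, adjusted p = 0.0377). The Pdk2 call was lost without MitoPositive library C or monoculture library D in MitoPositive cells (adjusted p = 0.0512 and 0.0523). In MitoNegative cells it was lost without MitoPositive library C, MitoNegative library B or C, or monoculture library B or D (adjusted p up to 0.139). There it was also lost with no filter (adjusted p = 0.0844). Pdk3 did not pass, with log2 fold changes of -0.15 ± 0.0894 and -0.17 ± 0.0894. Pdk1 remained the main kinase at 61.4%, 55.7% and 53.1% of the 3 transcripts in monoculture, MitoNegative and MitoPositive cells, and the share of Pdk3 was 26.6%, 32.6% and 35.5%. Pgm2, a phosphoglucomutase and phosphopentomutase (chromosome 5, 64092950 to 64128351, plus strand), was at 34.9, 33.9 and 37.3 CPM in monoculture, 32.7, 31.9 and 30.3 in MitoNegative and 28.6, 32.2 and 32 in MitoPositive libraries. Its small decrease passed in MitoPositive cells (log2 -0.19 ± 0.0665, adjusted p = 0.0355), a call lost in 9 of 18 alternative fits, among them those without MitoPositive library B (0.15), MitoNegative library B or C (0.0589 and 0.0647) or monoculture library B or D (0.0594 and 0.118), and in MitoNegative cells it was -0.16 ± 0.0664 (adjusted p = 0.0767).

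MitoPositive and MitoNegative cells came from the same kind of co-culture and differ by the DsRed signal. Hk2 had the largest difference of the 33 genes between them, 1.59-fold (log2 0.67 ± 0.145), with an adjusted p of 0.108. MitoPositive libraries were higher within each letter, by log2 ratios of 0.74, 0.79 and 0.43 in B, C and D. With the replicate letter as a block and all 9 libraries, Hk2 passed (adjusted p = 0.00712), the only 1 of the 33, where 2.34% of all genes tested passed. It also passed without MitoPositive library D (log2 0.81, adjusted p = 0.0172). Non-overlapping levels, higher in MitoPositive cells, were found for 5 of the 33 (Slc2a3, Hk2, Pgam1, Eno1 and Eno1b), beside 10.5% of all genes tested, and Gpi1 and Aldoa were lower without overlap, beside 9.55%. The log2 fold changes were 0.24 ± 0.0867 for Slc2a1, 0.20 ± 0.0634 for Slc2a3, 0.22 ± 0.0954 for Pgam1, 0.21 ± 0.183 for Slc16a3, 0.10 ± 0.0904 for Ldha and 0.05 ± 0.0801 for Pkm. Negative values were -0.36 ± 0.205 for Eno2, -0.28 ± 0.189 for Slc2a6, -0.19 ± 0.0913 for Gpi1, -0.17 ± 0.119 for Pdk1, -0.14 ± 0.0768 for Aldoa and -0.13 ± 0.0917 for Pfkfb3. None of these passed (adjusted p from 0.244 to 0.91). Pgk1, which differed most from monoculture, had a log2 difference of 0.03 ± 0.105 between the co-cultured groups.

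**Figure D5:**
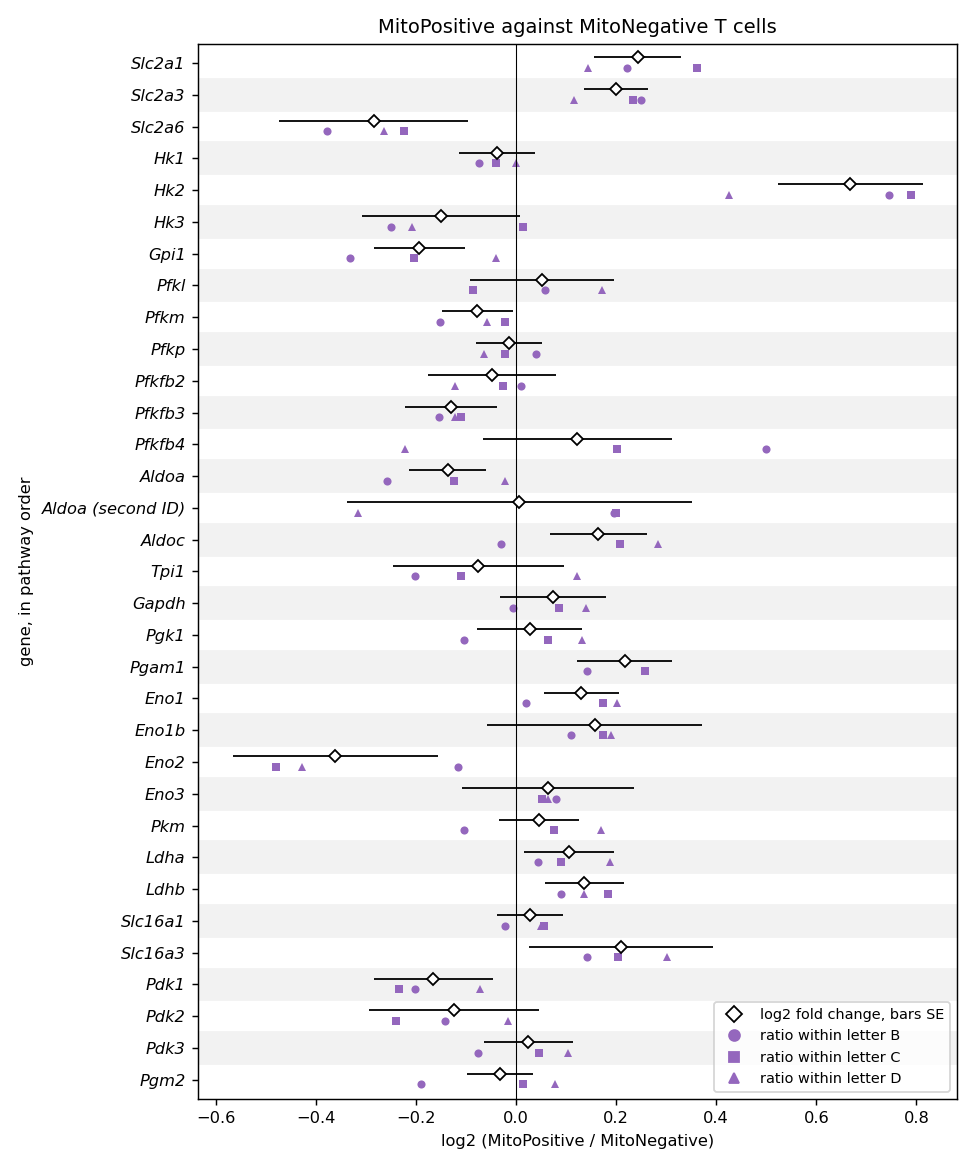
Log2 ratio of MitoPositive to MitoNegative cells for each gene (horizontal axis), in pathway order. Diamonds are the fitted log2 fold changes with SE (n = 3 per group), and open diamonds did not pass; purple points are the ratios of the libraries of the same letter. Hk2 lies farthest right, with its 3 ratios between 0.43 and 0.79.

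A fit of the MitoPositive and MitoNegative libraries alone with the letter as a block called 18.2% of all genes tested, so its counts are set beside that share. In it 8 of the 33 were higher and 6 lower, or 24.24% and 18.18%, beside 9.92% and 8.29% of all genes tested. Higher were Slc2a1 (log2 0.25, adjusted p = 0.000838), Slc2a3 (0.20, 0.000965), Hk2 (0.66, 0.00298), Pgam1 (0.22, 0.000459), Eno1 (0.14, 0.0239), Ldha (0.11, 0.0425), Ldhb (0.14, 0.0450) and Slc16a3 (0.22, 0.00818). Each of these had 3 positive within-letter ratios. Lower were Slc2a6 (−0.28, 0.00748), Gpi1 (−0.19, 0.0163), Pfkfb3 (−0.13, 0.0206), Aldoa (−0.13, 0.0423), Eno2 (−0.34, 0.0270) and Pdk1 (−0.17, 0.00369), each with 0 positive ratios. Such a fit tests the within-letter differences, so ratios of the same sign are no further support for its calls. Eno1b and Eno3, which it did not call, also had 3 positive ratios, and Hk1, Pfkm and Pdk2 had 0. That fit rests on 6 libraries and 2 residual degrees of freedom, and apart from Hk2 and Slc2a3 these 14 calls were made by no other fit tried.

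Among 52 other genes of the pathway, 32 were measured above the filter. In MitoPositive cells 10 of the 32 were higher and 7 lower than in monoculture, or 31.25% and 21.88%, beside 22.3% and 19.9% of all genes tested. In MitoNegative cells 8 were higher and 7 lower, or 25% and 21.88%, beside 20.6% and 18.3%. The median log2 fold changes were 0.11 and 0.04. Between MitoPositive and MitoNegative cells 0 of the 32 passed, and for 4 the unadjusted p was under 0.05, as it was for 10.5% of all genes tested. With the replicate block and all 9 libraries 1 of them passed, Arrdc4, which was lower in MitoPositive cells (log2 -0.63 ± 0.173 without the block, adjusted p = 0.166, and 0.0311 with it). Gpd2, the mitochondrial glycerol-3-phosphate dehydrogenase, which passes cytosolic electrons to the respiratory chain, was at 16.8 ± 2.34 CPM in monoculture, 28 ± 2.06 in MitoNegative and 33.5 ± 5.12 in MitoPositive cells (log2 0.73 ± 0.122 and 0.99 ± 0.122, adjusted p = 0.000756 and 7.83e-05). Gpd1l, related to its cytosolic partner, was at 74.1 ± 3.02, 44.9 ± 2.07 and 42.3 ± 4.69 CPM in the same order, a decrease (log2 -0.72 ± 0.077 and -0.81 ± 0.0771, adjusted p = 2.96e-05 and 9.24e-06). Slc2a8, another glucose transporter, was higher by log2 0.48 ± 0.0968 and 0.65 ± 0.0968 in MitoNegative and MitoPositive cells, and Arrdc4, an arrestin that limits glucose uptake, by 1.44 ± 0.179 and 0.80 ± 0.179. Pgm2l1, which makes a glucose bisphosphate, was lower, with log2 fold changes of -0.56 ± 0.0961 and -0.81 ± 0.0967.

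The pentose phosphate branch, which draws glucose 6-phosphate off to make ribose and NADPH, showed no single direction. Of its 10 genes, 3 were higher (Prps1, Prps2 and Rpe) and 3 lower (G6pdx, Taldo1 and Rpia) in each co-cultured group, with median log2 fold changes of −0.12 in both. That is 30% in each direction, beside 22.3% and 19.9% of all genes tested in MitoPositive and 20.6% and 18.3% in MitoNegative cells. In the glycogen branch 14 of 15 genes were measured, of which 4 were higher (Ugp2, Pygl, Gbe1 and Phkb) and 2 lower (Pygm and Pygb) in MitoPositive cells, and 4 higher (Ugp2, Pygl, Gbe1 and Phkg2) and 1 lower (Pygb) in MitoNegative cells. These are 28.57% and 14.29%, and 28.57% and 7.143%, of the 14, beside the same shares of all genes tested. Pygl, the liver form of glycogen phosphorylase, which releases glucose from glycogen, was at 3.93 ± 0.372 CPM in monoculture, 15.1 ± 1.72 in MitoNegative and 19.4 ± 2.0 in MitoPositive cells. These were log2 fold changes of 1.95 ± 0.118 and 2.30 ± 0.119 (adjusted p = 6.57e-07 and 1.18e-07). Between MitoPositive and MitoNegative cells no gene of either branch passed (unadjusted p was under 0.05 for 0 and 4 of them), and Pygl was higher in MitoPositive cells with the replicate block and all 9 libraries (adjusted p = 0.0318, or 0.228 without it).

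Markers of other cells moved with co-culture, and their part in the differences above was not tested. The summed CPM of 7 CD8+ T-cell and T-cell markers was 5507 to 6711 in monoculture, 5327 to 5590 in MitoNegative and 5520 to 5697 in MitoPositive libraries, so these genes were present in every library, as the label says. Of the 7, 4 were lower in MitoPositive and 5 in MitoNegative cells than in monoculture, and 0 differed between MitoPositive and MitoNegative cells. Of all genes tested, 19.9% and 18.3% were lower than in monoculture, and 0.165% differed between the co-cultured groups. The 16 stromal markers summed to 6.11 to 7.54 CPM in monoculture with 9 of them at 0, and most of that sum was Thbs1, at 5.63 CPM. They summed to 16.8 to 42.8 in MitoNegative libraries, with 1 at 0, and to 16.6 to 41.5 in MitoPositive libraries, with 0 or 1 at 0. Thbs1 did not pass the test (4.51 CPM in each co-cultured group), whereas the fibronectin gene Fn1 was at 0.0550 CPM in monoculture, 7.45 in MitoNegative and 7.66 in MitoPositive cells and the collagen gene Col1a1 at 0.430, 4.41 and 4.30. The markers named with values here were chosen after their values were seen, while beside Hk3 every myeloid marker of the list is given. Of 14 stromal markers tested, 12 were higher in each co-cultured group than in monoculture. The share of all genes tested was 22.3% in MitoPositive and 20.6% in MitoNegative cells. Between MitoPositive and MitoNegative cells 0 of the 14 differed, beside 0.165% of all genes tested. The 7 B-cell markers summed to 677 to 750 CPM in monoculture, 366 to 459 in MitoNegative and 277 to 308 in MitoPositive libraries, most of it Ighm. Of the 7, 5 were lower in each co-cultured group than in monoculture, and 1, Ighm, was lower in MitoPositive than in MitoNegative cells (log2 -0.52 ± 0.0846, adjusted p = 0.0464). Beside these stand 19.9% (MitoPositive), 18.3% (MitoNegative) and 0.165% (between the co-cultured groups) of all genes tested. The 3 natural killer markers summed to 13.0 to 21.3, 8.72 to 13.4 and 6.75 to 8.59 CPM in monoculture, MitoNegative and MitoPositive libraries. Nearly all of this was Eomes, a transcription factor that CD8+ T cells also express, at 15.8, 10.3 and 7.60 CPM, while Klrb1c was at 0.336, 0.318 and 0.0915 and Ncr1 at 0.0715, 0.0431 and 0.113. Of 2 natural killer markers tested, 2 were lower in MitoPositive and 1 in MitoNegative cells than in monoculture, beside the same 19.9% and 18.3%. The 2 CD4+ T-cell markers summed to 50.6 to 53.7, 44.9 to 47.5 and 48.9 to 59.2 CPM, nearly all of it Zbtb7b. Cd4 itself was at 2.06, 1.10 and 0.823 CPM and was called lower in MitoPositive cells than in monoculture (adjusted p = 0.0305, or 0.12 in MitoNegative cells). The 3 erythroid markers were at 0 in monoculture and MitoPositive libraries and at most 0.0143 CPM in MitoNegative libraries.

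Some of these genes share sequence with other genes or pseudogenes, which could split or remove reads. Of the 50-base words of the transcripts, 53.9% in Pgk1, 36.2% in Pgam1, 26.0% in Eno1, 25.8% in Pkm and 25.1% in Gapdh were also found in transcripts of another gene. The best-matching partner of Pgk1, Pgk1-rs7, had 291 counts over the 9 libraries. Levels of these genes relative to others are therefore uncertain. For 13 of the 33, Hk2, Pdk1, Slc16a3 and Aldoc among them, no word was shared.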

How the data were processed

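Gene counts from 9 RNA sequencing libraries were analysed, 3 each of MitoPositive, MitoNegative and monoculture CD8+ T cells. The authors deposited raw counts per gene. Per the submitters' processing notes, bcl2fastq, cutadapt, STAR 2.7 and featureCounts were used on the build GRCm38, and DESeq2 is listed too. The annotation release and the strand setting of the counting are not given in the sources used here. If strand was not used, reads where genes of opposite strands overlap cannot be assigned to either. Such overlaps cover 11.5% of the exon bases of Gpi1, 5.58% of those of Pfkp and 1.65% of those of Gapdh. Overlaps with a gene of the same strand cover 17.4% of the exon bases in Pfkfb2, 15.3% in Pkm and 10.2% in Pfkm. Reads there are ambiguous whatever the strand setting. Exon lengths came from the deposited annotation, in bases. Coordinates are those deposited, and 54673 of 55520 identifiers have the same coordinates in GENCODE M21. The 99 spike-in entries held 0 counts.

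Counts were fitted in R 4.3.3 with edgeR 4.0.16 (quasi-likelihood, robust) after filterByExpr (minimum count 10, minimum total 15), which kept at least 99.96% of each library's counts. The scale was the trimmed mean of M-values. All 9 libraries were fitted by group, with 6 residual degrees of freedom. Benjamini-Hochberg adjustment ran over the 15711 genes of each comparison, and an adjusted p under 0.05 was called. The fit was tested on simulated data. SE is the log2 fold change over the square root of its F statistic. Levels (CPM), isoform shares and ratios are descriptions with no test. Libraries held 53546152 to 74722832 counts, and the SE of a fold change holds counting error and the spread between libraries together.

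Letters were taken to pair MitoPositive with MitoNegative libraries, because libraries of the same letter deviated together from their group means across genes (correlations of 0.402, 0.339 and 0.459 for B, C and D), and MitoNegative with monoculture (0.213, 0.153 and 0.111). The MitoPositive and monoculture pairs gave 0.248, 0.0521 and 0.163, under the limit of 0.1 in C. Alternatives were DESeq2 size factors, total counts as the scale, no filter, a stricter filter (minimum count 50, minimum total 75), DESeq2 1.42.0, limma 3.58.1 (voom), the compared groups alone, the letter as a block, and leaving out each library.

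The members and the lists of other genes (pathway, pentose phosphate, glycogen, cell type markers) were chosen with earlier results of these data known. Named in full are members that passed in at least 1 comparison and Slc2a1, Hk2, Pfkfb3, Pkm, Ldha, Slc16a3 and Pdk1, the others by range or group mean. Exceptions are Eno1b and the second Aldoa identifier, which passed but whose levels are given by range. Of the other lists at most 6 genes per comparison are given with values, those with the largest change among passing genes with a mean log2 CPM of at least 1. Promoters are from RefSeq.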

Additional observations from a re-analysis of the deposited data

How the results depend on the processing

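Against monoculture, 18 of the 22 calls in MitoPositive cells and 16 of the 21 in MitoNegative cells held in all 18 alternative fits. Of 1779 gene values under alternatives, 1653 kept their direction and side of the threshold, 50 passed newly, 52 no longer passed and 24 changed sign. The number of genes called between MitoPositive and MitoNegative cells was 26, and 15 with DESeq2 size factors, 14 with total counts, 171 with no filter, 4 with the stricter filter, 418 with DESeq2 and 65 with only these groups. Of the calls, 14 were higher and 12 lower, but 10 and 5 with DESeq2 size factors and 10 and 4 with total counts. Of the 33 genes, DESeq2 called 2 higher. With no filter, 1 was lower in MitoNegative cells than in monoculture. The causes were not tested.

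With the replicate block, letters paired across groups, 367 genes were called between MitoPositive and MitoNegative cells with all 9 libraries and 2810 with only these groups. Of the 33, 1 was then higher with all 9 libraries, and 8 higher and 6 lower with only these groups. Against monoculture, 5 were lower in MitoPositive cells with the block and all 9 libraries, beside 23% of all genes tested. With the block and only those groups 2 were lower, beside 20.1%. Beyond these and the genes named in the text, the block with all 9 libraries changed no call of the 33.

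Leaving out each library in turn gave 1 to 120 genes called between MitoPositive and MitoNegative cells, 0 to 1 of the 33 higher and 0 lower. The fewest calls came without MitoPositive library C or MitoNegative library B or C, 1 each, and the most without monoculture library D. Against monoculture, 1 to 4 of the 33 were lower in MitoPositive and 1 to 2 in MitoNegative cells, with 17 to 21 and 15 to 19 higher. Of all genes tested (15962 to 16088), 2533 to 3142 were lower and 2951 to 3689 higher in MitoPositive cells. In MitoNegative cells 2164 to 2804 were lower and 2757 to 3364 higher. Only 1 of the 33 was lower in MitoPositive cells without monoculture library D. In MitoNegative cells it was 1 without MitoPositive library C, MitoNegative library B or C, or monoculture library B or D.

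The values that changed sign were not called. Leaving out libraries, the log2 difference between MitoPositive and MitoNegative cells ran from -0.0697 to 0.011 for Hk1, -0.10 to 0.20 for Pfkl, -0.0794 to 0.0228 for Pfkp (0.0023 with total counts), -0.0474 to 0.36 for Pfkfb4, -0.077 to 0.19 for the second Aldoa identifier (ENSMUSG00000114515), -0.19 to 0.0786 for Tpi1, -0.0521 to 0.0935 for Pgk1, -0.0158 to 0.0869 for Pkm, -0.31 to 0.000935 for Pdk2, -0.00375 to 0.0579 for Pdk3 and -0.0618 to 0.022 for Pgm2. In MitoNegative cells against monoculture it ran from -0.0478 to 0.016 for Pfkp, -0.17 to 0.0352 for Pfkfb2, -0.17 to 0.25 for Pfkfb4, -0.0713 to 0.15 for Pgam1 and -0.0189 to 0.17 for Ldha. Depth was lowest for the second Aldoa identifier, Eno1b and Hk3, the 3 of the 33 with the fewest counts. With 3 libraries per group, a difference that missed the threshold is not shown to be absent.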
